A study of Mus with 16 samples.

Results

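The 200 transcripts described here varied most among the 4 libraries of a cross in mouse F1 hybrid epiblast stem cells. Levels were taken as log2(CPM + 0.5), where CPM, the usual depth-scaled unit, is the estimated count of a transcript scaled by the total of its library. Of 116747 transcripts listed, 12082 had a mean level from 3 to 7 over the 16 libraries. For each of these the standard deviation (SD) was computed within each of the 4 crosses, the 4 SDs were averaged, and the 200 highest were taken as members, which is 1.66% of that window. The members were therefore chosen by the values reported for them, and those values are descriptions without a test.

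The study sequenced ribodepleted total RNA in bulk from F1 epiblast stem cells so that allelic mapping could be set beside droplet single-cell data. All 4 crosses, CastB6, MolfB6, PwkB6 and SpretB6, share C57Bl/6J as a parent and differ in the wild-derived inbred strain of the other parent, which the names give as Cast, Molf, Pwk and Spret. Each cross has 4 libraries, numbered 1, 3, 5 and 6, or in MolfB6 1, 2, 3 and 6, and all were untreated as far as the labels say. The labels do not say whether the numbers are separate lines, clones, embryos or cultures, nor the sex of the cells, so the libraries are called by cross and number and p-values measure the spread between libraries, which may be partly technical. Totals ran from 42596559 estimated counts in PwkB6 1 and 44203863 in SpretB6 6 to 72364991 in SpretB6 3.

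Epiblast stem cells are pluripotent cells in a primed state, derived from the epiblast of the embryo after implantation, and lines of such cells are known to differ from each other in how far they lean towards germ layer fates. A gene can give several transcripts that share most of their sequence. A quantifier such as Salmon divides the reads that match several of them by a likelihood model, so an estimated count can move between similar transcripts while their sum stays the same. The files list transcripts by Ensembl identifier only and do not pair them with gene names. The members are therefore given by identifier, length and pattern, and the epiblast label could not be set against marker genes.

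The mean SD within crosses ran from 0.834 to 2.97 log2 units over the members, with a median of 1.05. The median over all transcripts in the window was 0.222. The last members inside the threshold were ENSMUST00000174561.8 at 0.834796 and ENSMUST00000138621.2 at 0.834223, and the first outside it were ENSMUST00000081335.13 at 0.83398 and ENSMUST00000018449.11 at 0.831064. The threshold thus cuts a continuous tail rather than a separate class. Members lay low in the window: 125 (62.5%) had a mean level of 3 to 4 against 36.3% of the window, and 7 had a level of 6 to 7.

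**Figure D1:**
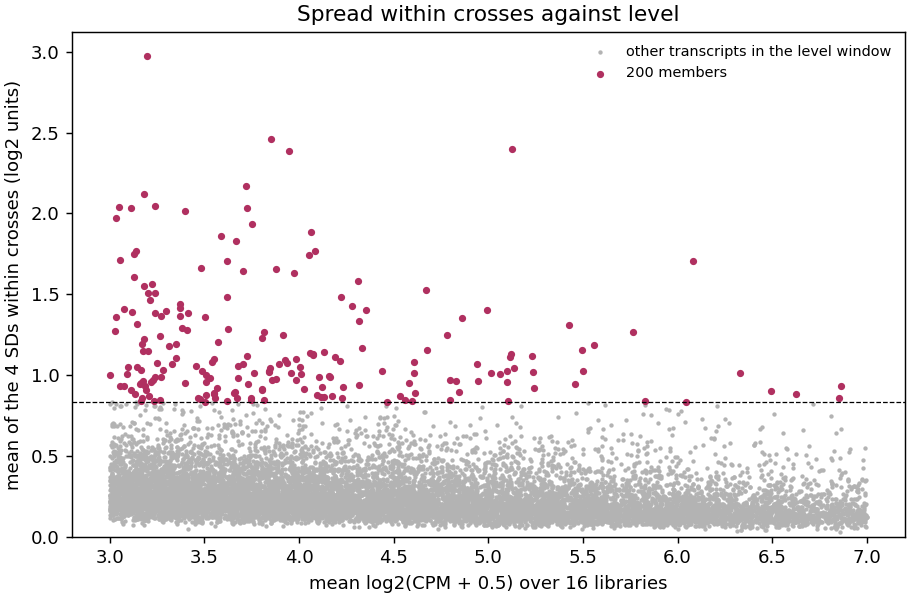
Mean of the 4 within-cross SDs (y, log2 units) against the mean log2(CPM + 0.5) over 16 libraries (x) for 12082 transcripts, with the 200 members coloured and the lowest member as a dashed line. The members form the upper tail at every level, thin out above a level of 6, and reach 2.97.

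PwkB6 and CastB6 carried most of the spread. Of the summed within-cross variance of the members, 39.5% lay in PwkB6, 27.5% in CastB6, 16.7% in SpretB6 and 16.3% in MolfB6. The median SD of the members was 1.33 in PwkB6, 1.15 in CastB6, 0.694 in MolfB6 and 0.589 in SpretB6, beside window medians of 0.297, 0.209, 0.183 and 0.147. By median SD, PwkB6 was thus the most variable cross and SpretB6 the least, for the members and for the window as a whole, while the share of the variance was lowest in MolfB6. An SD over 1 log2 unit was reached by 132 members in PwkB6, 112 in CastB6, 60 in MolfB6 and 54 in SpretB6. The shares of the window over 1 were 3.04%, 2.39%, 0.679% and 0.588%.

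Few members were variable in every cross. The SD was over 1 in a single cross for 89 members, in 2 crosses for 74, in 3 for 23 and in all 4 for 13, and 1 member exceeded it in none. In the window, 94.7% of transcripts exceeded it in no cross and 0.108% in all 4, which are these 13. They are led by ENSMUST00000109551.8, ENSMUST00000099683.2, ENSMUST00000099046.4 and ENSMUST00000164079.9, with mean SDs of 2.97, 2.40, 2.17 and 2.05.

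Spread in a cross that took no part in the choice could be read by leaving that cross out. When 200 transcripts were chosen in the same way on 3 crosses, their median SD in the cross left out was 1.02 in PwkB6, 0.861 in CastB6, 0.548 in MolfB6 and 0.516 in SpretB6. The window medians beside them were 0.297, 0.211, 0.183 and 0.148. Between 124 and 139 of the 200 (62% to 69.5%) fell in the top 10% of the window by SD in the cross left out. An SD over 1 in the cross left out was reached by 100 of 200 in PwkB6, 86 in CastB6, 43 in MolfB6 and 40 in SpretB6. The shares of the window over 1 were 3.29%, 2.75%, 0.788% and 0.746%. The transcripts most variable in 3 crosses thus mostly ranked high in the remaining one, but in MolfB6 and SpretB6 most stayed under 1. The window was not matched to them in level, and the leading transcripts of single crosses overlapped less. The 200 most variable transcripts of each cross taken alone shared 45 to 54 between any pair of crosses (22.5% to 27% of each list), and 16 were in all 4 lists. Without PwkB6 5 the PwkB6 median of 1.02 was 0.659.

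The library that drove each member was taken as the one farthest from the mean of the other 3 libraries of its cross, over all 16. Libraries of PwkB6 drove 87 members, of CastB6 62, of MolfB6 29 and of SpretB6 22. Their shares of the window were 58.2%, 18.7%, 13.5% and 9.63%. PwkB6 thus drove a smaller share of the members than of the window, and CastB6 a larger one. The order of PwkB6 and CastB6 rests on single libraries: when the choice was repeated without PwkB6 6, PwkB6 drove 62 and CastB6 74, and without CastB6 6 they drove 76 and 85. The counts by library were 39 for PwkB6 6, 31 for CastB6 1, 22 each for CastB6 3 and PwkB6 5, 18 for PwkB6 3 and 15 for SpretB6 6. The other 10 libraries drove 2 to 10 members each. The 6 libraries named thus account for most members, but the same 6 also drove most of the window. PwkB6 6 alone held 14.6% of the within-cross variance.

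In the window as a whole PwkB6 6 was also the library most often farthest from its cross, for 30.1% of transcripts, followed by PwkB6 5 with 14.3%. CastB6 1, CastB6 3 and PwkB6 3 drove 9.65%, 5.74% and 9.74% of the window, and SpretB6 6 drove 4.21%. PwkB6 6 took a smaller share of the members (39 of 200) than of the window, and the 2 CastB6 libraries took larger shares. PwkB6 6 had the lowest share of estimated counts in its 100 most abundant transcripts, 16.9% against 18.6% to 22.2% in the other 15 libraries, and its part in the spread was not tested. SpretB6 6 drove 15 of the 22 members of SpretB6 and PwkB6 1 drove 8, and these are the libraries with the fewest counts. Choosing again without both kept 164 of the 200 members, with 84 driven by PwkB6, 69 by CastB6, 31 by MolfB6 and 16 by SpretB6.

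The driving library was below its cross for 163 members (81.5%) and above it for 37. Over the window 51.5% of driving libraries were below, so downward departures were more frequent among the members. The median distance of the driving library from the others was 4.48 log2 units. PwkB6 6 was below for 31 of its 39 members, CastB6 3 for 20 of 22, PwkB6 3 for 17 of 18 and SpretB6 6 for 15 of 15. CastB6 1 was mixed, with 17 below and 14 above, and so was PwkB6 5, with 14 below and 8 above. Without the driving library, 122 members had a mean SD under that of the lowest member and 78 stayed above it. That library is the farthest by definition, so a lower SD without it follows in part from how it was taken.

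**Figure D2:**
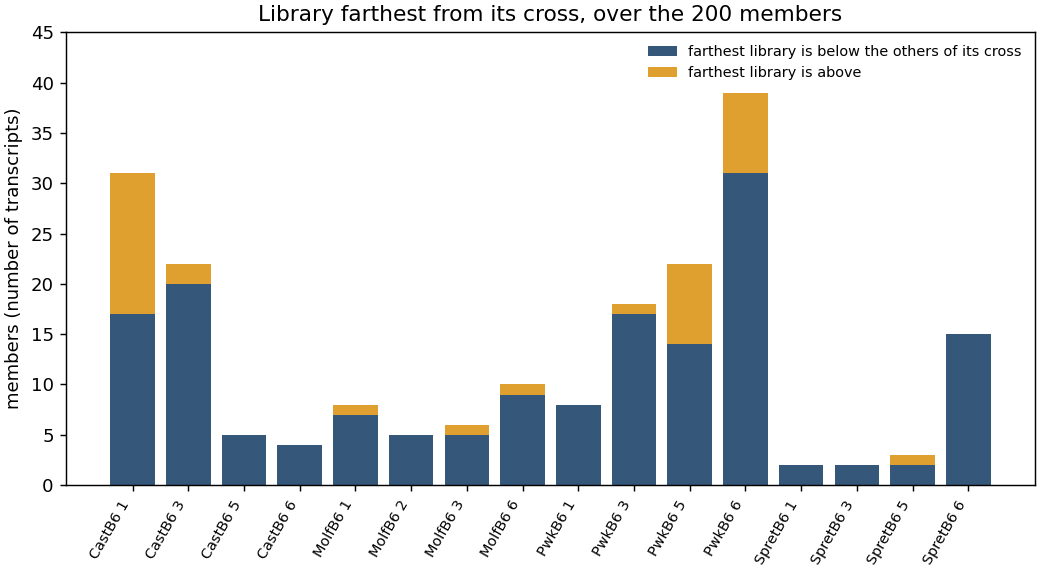
Number of members (y) for which each of the 16 libraries (x) was farthest from the other 3 libraries of its cross, stacked by direction. PwkB6 6 leads with 39 members, 31 of them low; CastB6 1 has 31, split 17 low and 14 high; and all 15 of SpretB6 6 are low.

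Many of the low values were at 0 reads. A count of 0 occurred in at least 1 library for 121 members (60.5%), against 157 transcripts (1.30%) of the window, so members make up 77.1% of the transcripts of this level that were ever at 0. It occurred in exactly 1 library for 86 members and in 2 or more for 35, with 5 libraries as the most. The driving library was at 0 for 111 members. Since a 0 widens the SD by which members were chosen, the excess of zeros over the window is partly fixed by the choice. At these depths a count of 0 allows up to 0.0415 to 0.0704 CPM (3 counts of the total), which covers counting error only. A count of 0 can also come from how shared reads were divided, and the files do not tell these apart.

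The zeros were unevenly spread over libraries. PwkB6 6 had 23 members at 0, SpretB6 6 20, PwkB6 3 18, CastB6 1 and PwkB6 1 16 each, and CastB6 3 15, while the other 10 libraries had 2 to 10. Taken over the whole table, 220 transcripts were under 0.1 CPM in a single library and at 2 CPM or more in the other 15. PwkB6 6 held 40 of these, CastB6 3 and PwkB6 3 26 each, and PwkB6 1 24.

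The shape of the spread was counted in each of the 358 cases in which a member had an SD over 1 in a cross. The widest gap between the ordered values set 1 library below the other 3 in 230 cases, split the libraries 2 and 2 in 74, and set 1 above the other 3 in 54. A single low library was the most frequent shape in each cross, with 83 of 132 cases in PwkB6, 73 of 112 in CastB6, 39 of 60 in MolfB6 and 35 of 54 in SpretB6. The choice by level and SD partly favours this shape, and the shapes were not counted over the window.

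Read as a whole, the deviations of the members from their cross means had few shared directions. The first principal component held 27.6% of the within-cross variance and set CastB6 1 and PwkB6 5 (loadings -0.50 and -0.47) against CastB6 3 and PwkB6 6 (0.46 and 0.31). The second held 20.7% and set PwkB6 6 (-0.72) against PwkB6 3 (0.48). The next ones held 10.3% and 8.34%.

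Members were grouped where all pairs of a group had deviations correlated at 0.7 or more over the 16 libraries, which leave 12 free deviations because each cross mean was removed. Such correlations are descriptions, since all members share the same libraries and were chosen on these deviations. There were 10 groups of 5 or more members, holding 80 members, 35 groups of 2 to 4, and 29 members were alone.

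**Figure D3:**
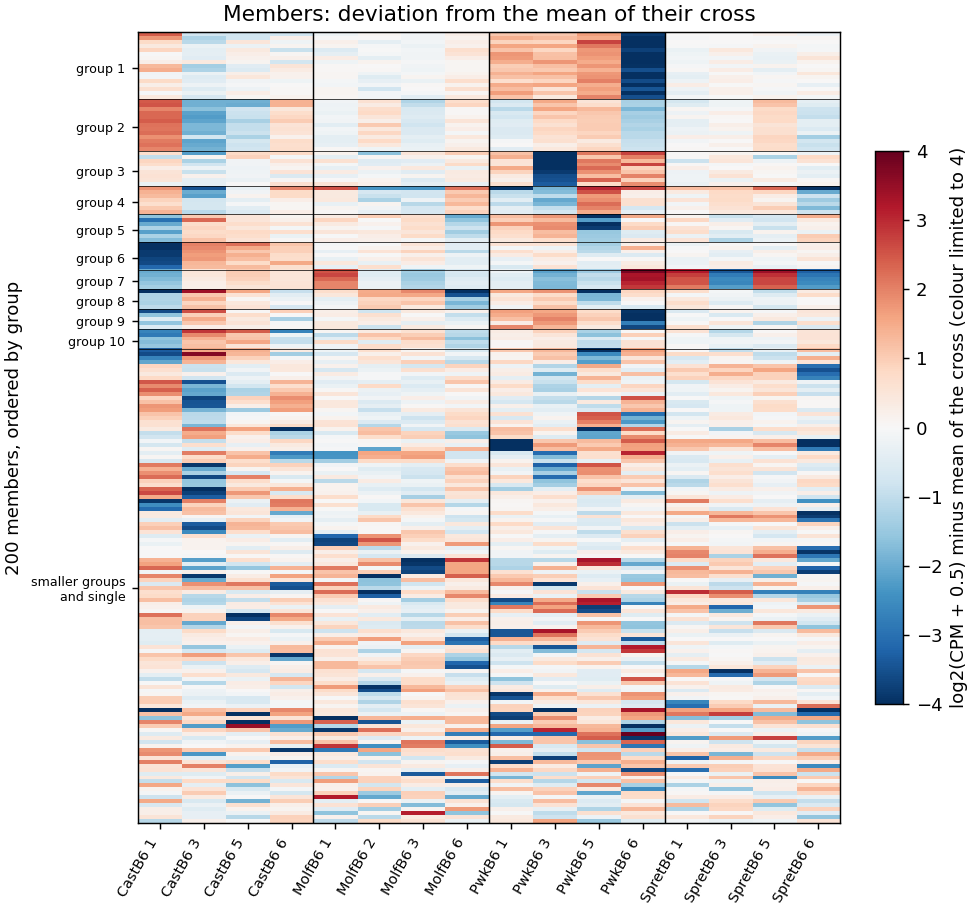
Deviation of each of the 200 members (rows, ordered by group) from the mean of its cross in log2 units (colour, limited to 4), by library (columns). Group 1 is blue in PwkB6 6, group 3 in PwkB6 3 and group 6 in CastB6 1, whereas group 7 changes sign within all 4 crosses.

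The largest group, with 17 members and a lowest pairwise correlation of 0.811, was low in PwkB6 6. The median level of its members there was 0 CPM, with 10 of 17 at 0 and none above 2.07 CPM, against medians of 26.5 to 47.9 CPM in the other 15 libraries. In PwkB6 6 these transcripts were thus at or near 0, not shifted by degrees.

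Of these 17, a block of 4 transcripts listed within 20 rows of each other in the tables was also under 10 CPM in all 4 CastB6 libraries. They are ENSMUST00000091197.4 (1836 bases), ENSMUST00000154004.8 (4267 bases), ENSMUST00000091190.12 (4600 bases) and ENSMUST00000188484.2 (3031 bases). Their summed level was 18.7, 0.848, 2.38 and 6.08 CPM in CastB6 1, 3, 5 and 6, and 6.20 CPM in PwkB6 6. In the other 11 libraries it ran from 273 to 370 CPM with a median of 329 CPM. The 5 low libraries were thus at 5.67%, 0.258%, 0.723%, 1.85% and 1.88% of that median, and the low and high libraries did not overlap. ENSMUST00000091190.12, for example, was at 6.37, 0.596, 1.54 and 3.55 CPM in CastB6 1, 3, 5 and 6, at 2.07 CPM in PwkB6 6, and between 78.1 and 135 CPM in the other 11. Within 12 rows of this stretch, a further 7 tested transcripts that are not members followed the block at a correlation of 0.9 or more over the 16 levels, and 13 did so elsewhere in the tables.

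The second group was graded rather than absent in a library. Its 13 members had no count of 0, and their median levels were 24.8, 0.939, 2.37 and 8.98 CPM in CastB6 1, 3, 5 and 6. CastB6 1 was the highest CastB6 library for 13 of 13 members, and the highest exceeded the lowest by a median of 26.4-fold (11.2 to 43.1) within CastB6. Within PwkB6 the medians were 11.3, 40.1, 36.2 and 7.53 CPM in libraries 1, 3, 5 and 6, a median of 4.99-fold between highest and lowest, with PwkB6 6 lowest for 13 of 13. Within MolfB6 and SpretB6 the median folds were 2.45 and 3.07, and SpretB6 5 was highest for 13 of 13. The group was thus spread most widely in CastB6 and least in MolfB6. It does not stand alone, because 151 tested transcripts outside the member list followed its mean at a correlation of 0.9 or more. In CastB6 the block of 4 and the second group had the same order of libraries, 1, 6, 5 and 3 from high to low.

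**Figure D4:**
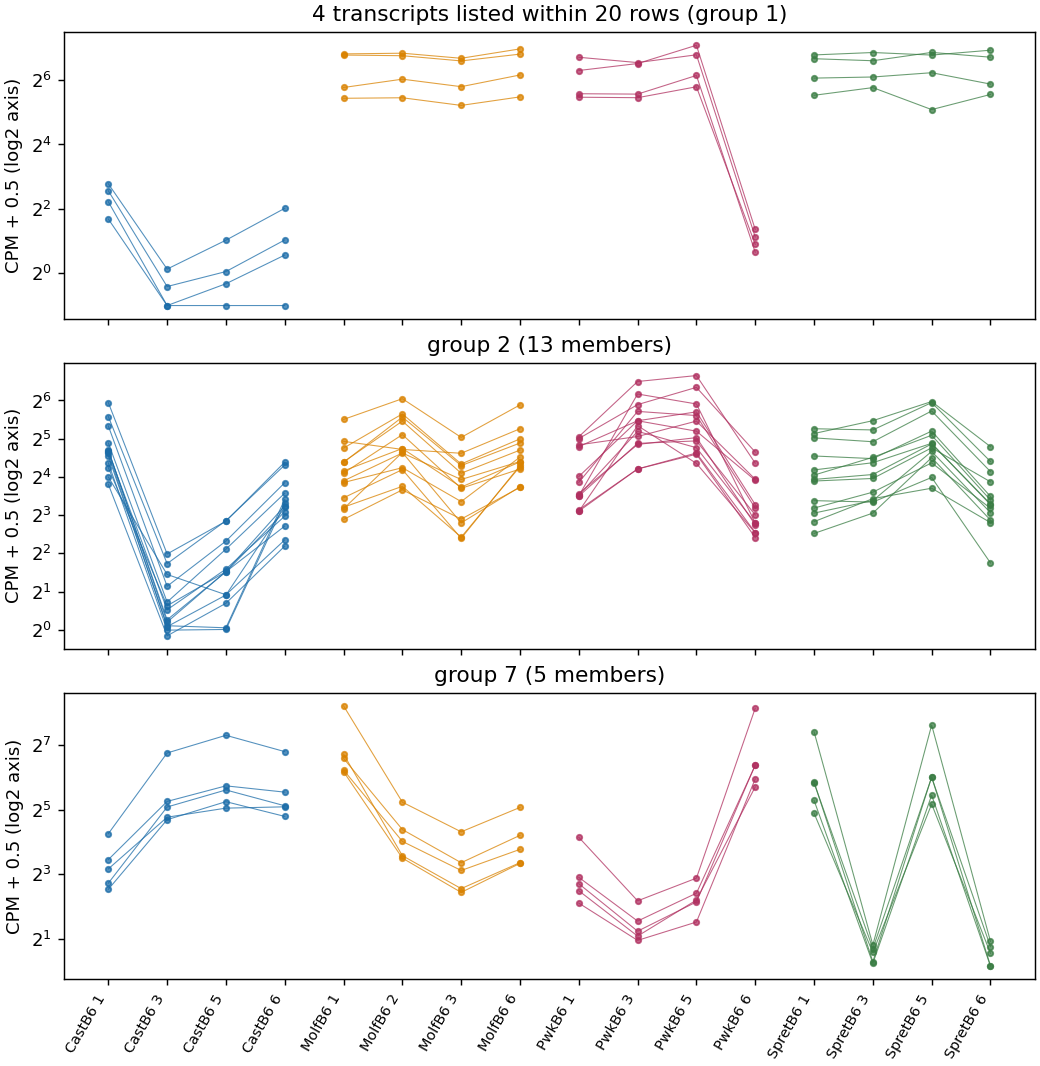
CPM + 0.5 on a log2 axis (y) by library (x, coloured by cross) for 3 sets of members, with 1 line per transcript joining libraries that have no order. The block of 4 is low in CastB6 and PwkB6 6, group 2 falls from CastB6 1 to CastB6 3 by a median of 26.4-fold, and group 7 moves in parallel within all 4 crosses.

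Another set of 5 short transcripts, of 504 to 681 bases, moved together at pairwise correlations of 0.994 or more. The highest library exceeded the lowest by 3.95-fold or more within every cross. All but ENSMUST00000143083.3 had an SD over 1 in all 4 crosses. The 5 are ENSMUST00000099683.2, ENSMUST00000099046.4, ENSMUST00000099684.4, ENSMUST00000099047.4 and ENSMUST00000143083.3. Their median levels were 8.47, 33.3, 48.3 and 34.2 CPM in CastB6 1, 3, 5 and 6, and 95.5, 15.7, 8.18 and 13.1 CPM in MolfB6 1, 2, 3 and 6. They were 6.03, 1.86, 4.10 and 82.0 CPM in PwkB6 1, 3, 5 and 6, and 56.4, 0.997, 63.4 and 0.970 CPM in SpretB6 1, 3, 5 and 6. The set was thus high in single libraries of MolfB6 and PwkB6 and split SpretB6 into a high and a low pair.

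The highest library exceeded the lowest by a median of 69.9-fold in SpretB6, 42.6-fold in PwkB6, 14.5-fold in MolfB6 and 7.07-fold in CastB6. The widest was ENSMUST00000099683.2, at 169, 1.26, 195 and 1.40 CPM in SpretB6 1, 3, 5 and 6. The ranges of the 4 crosses overlapped for this transcript, from 1.26 CPM in SpretB6 3 to 295 CPM in MolfB6 1, so a cross mean says little about it. A further 11 tested transcripts of 651 to 684 bases followed the set at a correlation of 0.9 or more over the 16 levels without being members, all with a mean level of at most 1.89. Reads divided among similar sequences cannot be told apart here from separate transcripts that move together.

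The remaining larger groups were each tied to few libraries. Group 3 had 9 members, and all 9 were at 0 in PwkB6 3, against group medians of 12.6 to 37.2 CPM in the other 15 libraries. Its member ENSMUST00000165111.8 (4162 bases) was at 69.6, 0, 133 and 202 CPM in PwkB6 1, 3, 5 and 6, and also fell apart in CastB6, at 146, 18.9, 159 and 158 CPM. The mirrored neighbour of this member, as defined below, was at 320 CPM in PwkB6 3 and 369 CPM in CastB6 3. Group 6 had 7 members, and all 7 were at 0 in CastB6 1, against group medians of 11.4 to 22.7 CPM elsewhere. Its widest member, ENSMUST00000113697.8 (1742 bases), was at 0, 79.5, 89.9 and 42.2 CPM in CastB6 1, 3, 5 and 6 and at 30.5 to 135 CPM in the other 12 libraries. In both groups all members were thus at 0 in 1 library and had reads in the other 15. Group 9 had 5 members, with a median of 0 CPM in PwkB6 6.

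Groups 4, 5, 8 and 10 followed CastB6 1, PwkB6 5 and MolfB6 6 in common. Group 4 (7 members) was high in these libraries, with medians of 96.6, 60.7 and 54.7 CPM, beside 17.1 CPM in CastB6 3, 4.68 CPM in PwkB6 3 and 15.1 CPM in MolfB6 3. Group 5 (7 members) was low in them, at 4.14, 3.96 and 6.72 CPM, beside 34.0, 35.6 and 25.6 CPM in CastB6 3, PwkB6 3 and MolfB6 3. Groups 8 and 10 (5 members each) were low there too, group 8 at 3.92, 5.40 and 1.08 CPM and group 10 at 2.71, 10.3 and 9.38 CPM. The 2 directions thus involve the same libraries.

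Those libraries had the smallest fragment length correction of their crosses, meaning how far the effective length reported by the quantifier falls short of the full length, as a median over transcripts longer than 2000 bases. It was 147.3 bases in CastB6 1, 147.6 in PwkB6 5 and 146.6 in MolfB6 6, where the other 13 libraries had 148.5 to 155.8. Group 4 was highest, and groups 6 and 8 lowest, in the library with the smallest correction in 4 of 4 crosses, and groups 5 and 10 were lowest there in 3 of 4. Group 1 was highest there in 3 of 4 and lowest in 1, group 2 highest in 2, group 9 lowest in 2, and groups 3 and 7 were highest in 1 and lowest in 1. The part of fragment length in these groups was not tested.

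The member with the highest spread was ENSMUST00000109551.8 (4906 bases, group 4), with SDs of 2.54, 2.74, 3.41 and 3.21 in CastB6, MolfB6, PwkB6 and SpretB6. It was at 96.6, 1.98, 22.2 and 107 CPM in CastB6 1, 3, 5 and 6, and at 14.7, 0, 0 and 11.2 CPM in MolfB6 1, 2, 3 and 6. It was at 0, 1.56, 60.7 and 45.9 CPM in PwkB6 1, 3, 5 and 6, and at 30.9, 29.98, 67.1 and 0 CPM in SpretB6 1, 3, 5 and 6. MolfB6, PwkB6 and SpretB6 thus each held libraries at 0, while the lowest CastB6 library, at 1.98 CPM, still had reads. The members with deviations most like its own were ENSMUST00000134542.2, ENSMUST00000145335.3 and ENSMUST00000152993.8, over 16 libraries, and all 3 were highest among CastB6 libraries in CastB6 1. ENSMUST00000145335.3, for one, was at 41.6, 3.41, 18.9 and 29.1 CPM in CastB6 1, 3, 5 and 6 and at 8.35, 7.63, 52.9 and 18.2 CPM in PwkB6 1, 3, 5 and 6.

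Other members with high spread had other drivers. ENSMUST00000002095.11 was at 31.7, 0, 31.9 and 169 CPM in PwkB6 1, 3, 5 and 6, at 0 CPM in CastB6 1 and at 0 CPM in SpretB6 6, and ran from 15.9 to 36.1 CPM in the other 10. ENSMUST00000162814.8 (group 8) was at 0, 85.5, 23.1 and 3.84 CPM in CastB6 1, 3, 5 and 6 and at 94.5, 111, 1.25 and 58.2 CPM in PwkB6 1, 3, 5 and 6. ENSMUST00000085385.7 was at 32.5, 31.0, 49.1 and 0 CPM in SpretB6 1, 3, 5 and 6 and at 0 CPM in PwkB6 1, the 2 libraries of lowest depth. At those depths 0 reads allows at most 0.0704 CPM by counting error alone, beside levels of 13.3 to 49.1 CPM in the other 14. The part of depth was not tested.

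In MolfB6 the widest low members were ENSMUST00000164079.9, at 10.8, 20.8, 0 and 68.6 CPM in libraries 1, 2, 3 and 6, and ENSMUST00000114106.8, at 46.4, 0, 16.9 and 23.5 CPM. ENSMUST00000155008.2 was at 19.7, 0, 10.9 and 0 CPM there, and at 121 to 166 CPM in CastB6, which did not overlap. Among members raised in a library of PwkB6, ENSMUST00000030143.13 was at 0, 0, 19.2 and 75.1 CPM in libraries 1, 3, 5 and 6 and ENSMUST00000226363.2 at 0, 14.4, 27.2 and 0 CPM. Neither had a count of 0 in the other 3 crosses. In CastB6, ENSMUST00000211719.2 was at 0, 75.3, 14.4 and 1.78 CPM in libraries 1, 3, 5 and 6, and ENSMUST00000029752.15 at 0, 21.8, 16.1 and 0 CPM. Both were at 0 in CastB6 1 and highest in CastB6 3. Both had a mirrored neighbour, as defined below. The sum with it was at 203, 231, 244 and 208 CPM in CastB6 1, 3, 5 and 6 for ENSMUST00000211719.2. For ENSMUST00000029752.15 it was at 10.7, 24.7, 19.4 and 10.3 CPM. ENSMUST00000115251.8 differed from both members, at 77.0, 31.7, 0 and 63.9 CPM, with CastB6 1 highest and CastB6 5 at 0.

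A share of the members was balanced by a transcript listed close by. A mirrored neighbour was taken as a transcript within 12 rows of the member whose deviations in CPM correlated at -0.8 or lower with its own and were of like size (an SD ratio of 0.5 to 2). This was looked for after the values had been seen. It held for 47 members (23.5%), against 474 transcripts (3.92%) of the window, and in 3 pairs both were members. Large deviations can reach such a correlation more readily than small ones, so the excess over the window may be partly fixed by the choice. The mean SD of these 47 had a median of 1.22 log2 units alone, and 0.133 for the sum of the member and its neighbour, with a highest value of 0.334. The sum was less variable than the median transcript of the window for 41 of 47. The pairs had a median length difference of 2.06%, and 33 lay within 5%. The definition asks for opposite deviations of like size, so a lower spread of the sum follows in part from it. A neighbour that is more abundant and steady alone also lowers the spread of the sum on a log scale. ENSMUST00000016680.14, for one, had a mean of 88.0 CPM and a mean SD of 0.0913, beside 10.5 CPM for its member ENSMUST00000125514.8. Others were less abundant than their member, such as ENSMUST00000119488.2 at 5.87 CPM beside 13.3 CPM, with a mean SD of 2.69.

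The most variable member was one of them. ENSMUST00000109551.8 had ENSMUST00000020538.13 (5145 bases) 1 row away, with a correlation of -0.895 over the 16 libraries. The neighbour was at 268 CPM in CastB6 3 and 190 CPM in CastB6 1, where the member was at 1.98 and 96.6 CPM. The sum ran from 218 to 319 CPM over all libraries and its mean SD was 0.0826. The neighbour alone, at a mean of 235 CPM beside 30.6 CPM for the member, had a mean SD of 0.154. The sum and the more abundant neighbour alone thus both varied less within crosses than the median transcript of the window, at 0.222.

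For ENSMUST00000067145.12 (2198 bases) the exchange was complete in most libraries. It was at 0 CPM in MolfB6 1 and PwkB6 1, where its neighbour ENSMUST00000119488.2 (2202 bases, 4 rows away, correlation -0.989) was at 19.9 and 19.7 CPM. The neighbour was at 0 CPM in 10 of the other 14 libraries, and the mean SD fell from 2.04 alone to 0.0996 for the sum. In the pair of members ENSMUST00000169064.8 and ENSMUST00000107812.8 (4064 and 4063 bases, correlation -0.959) the mean SDs were 2.12 and 1.77, and that of the sum was 0.131. In all 3 pairs the levels moved in opposite directions between transcripts of nearly the same length. Group 3 held 6 mirrored members of 9, while groups 2 and 7 held none and group 1 held 1 of 17.

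**Figure D5:**
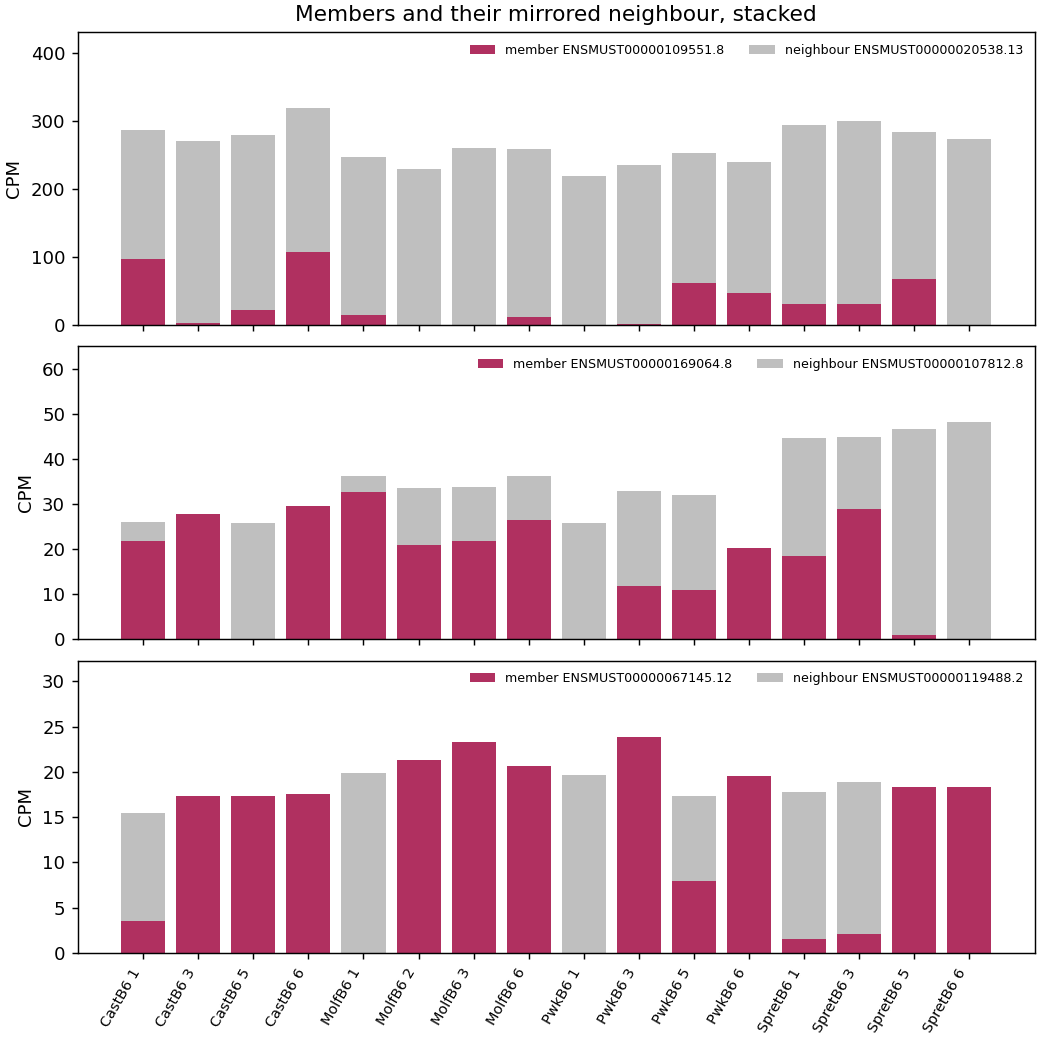
Stacked CPM (y, from 0) by library (x) of 3 members (coloured) and their mirrored neighbours (grey). The member's part runs from none to much or all of the bar while the total stays within a narrower range, 218 to 319 CPM for the first pair.

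The members were close to the window in length. Their median length was 2553.5 bases (quartiles 1153.5 and 4473) against 2744 in the window, and 43 (21.5%) were under 1000 bases against 14.9%. A transcript that shares no reads would have whole estimates in each library, and to a tolerance of 0.001 this held for 1 member and for 139 transcripts (1.15%) of the window. Nearly all members, like nearly all transcripts of this level, thus had a fractional estimate in some library.

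Differences between the crosses were tested as a contrast that the choice of members did not use, with edgeR's quasi-likelihood test over 56721 transcripts and Benjamini-Hochberg adjustment at 0.05. All 200 members passed its filter on low counts. The joint test of the 4 crosses called 6 members (3%), against 9.73% of all tested transcripts and 16.7% of the window. A low share is partly fixed by the choice, because the spread within crosses is the error term of the test, so it is no result about the members. The share of a member's variance that lay between crosses had a median of 25.4%, against 38.9% over the window.

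Against the mean of the other 3 crosses, CastB6 called 6 members (3%, against 4.52% of all tested). Of these 2 were higher and 4 lower, where 2.84% and 1.68% of all tested were. SpretB6 called 3 members (1.5%, against 7.1%), of which 2 were higher and 1 lower, where 4.32% and 2.78% of all tested were. MolfB6 called 0 members, against 2.57% of all tested (1.37% higher and 1.2% lower), and PwkB6 0, against 3.04% (1.5% higher and 1.54% lower). At an unadjusted p under 0.05 edgeR had 10 members for MolfB6 and 12 for PwkB6, with no share over all tested to read them against. DESeq2 called 4 (2%) and 6 (3%) after adjustment, against 6.01% and 8.66% of all tested. With limma voom the counts were 3 (1.5%) and 1 (0.5%), against 3.22% and 4.06%. The 4 comparisons share libraries and are not independent. Leaving out a single library moved the joint count to 2 without CastB6 5, 3 without CastB6 6 and 10 without PwkB6 6. These joint tests called 7.12%, 8.11% and 10.4% of all tested. The CastB6 count moved to 3 without CastB6 3 or CastB6 5, against 2.91% and 2.25% of all tested. The SpretB6 count moved to 7 without CastB6 1 or PwkB6 6, against 6.65% and 7.99%. Without PwkB6 6 MolfB6 called 4 members, against 3.17% of all tested, and without PwkB6 5 PwkB6 called 4, against 5.16%.

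The 4 members lower in CastB6 are the block of 4 described above. Their log2 differences, with the standard error, were -5.64 ± 1.40 for ENSMUST00000188484.2, -5.60 ± 1.02 for ENSMUST00000091197.4, -5.26 ± 1.02 for ENSMUST00000154004.8 and -4.89 ± 0.88 for ENSMUST00000091190.12 (4 libraries against 12). The adjusted p-values from edgeR were 0.0340, 0.00514, 0.00796 and 0.00479, and the first of these transcripts was not called by the joint test (adjusted p = 0.0780, edgeR). All 4 CastB6 libraries lay below the 11 high libraries for each of them, and PwkB6 6 lay with CastB6.

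ENSMUST00000089785.5 (483 bases) separated the crosses into a high and a low pair. It was at 217, 288, 284 and 269 CPM in CastB6 1, 3, 5 and 6 and at 301, 289, 328 and 319 CPM in SpretB6 1, 3, 5 and 6. In MolfB6 1, 2, 3 and 6 it was at 0, 20.9, 6.46 and 19.7 CPM, and in PwkB6 1, 3, 5 and 6 at 15.3, 33.8, 14.7 and 20.8 CPM. The ranges of the high and the low pair did not overlap, and it became a member through MolfB6, where its SD was 2.54. Against the other 3 crosses it was higher by 2.74 ± 0.62 log2 units in CastB6 (adjusted p = 0.0202, edgeR) and by 2.92 ± 0.62 in SpretB6 (adjusted p = 0.00846, edgeR).

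ENSMUST00000168019.2 (960 bases, group 1) was at 0 in all 4 SpretB6 libraries and in PwkB6 6, and between 14.2 and 70.3 CPM in the other 11. It was called lower in SpretB6 (adjusted p = 0.00371, edgeR) and higher in CastB6 (adjusted p = 0.0385, edgeR). The CastB6 call is against a mean that includes SpretB6 at 0. CastB6, at 14.2 to 52.4 CPM, overlapped MolfB6, at 24.3 to 37.8 CPM, so it is no rise particular to CastB6. No fold is given, because the fitted values depend on the 4 libraries at 0. ENSMUST00000237369.2 (2103 bases) was at 52.1, 48.4, 29.3 and 89.7 CPM in SpretB6 1, 3, 5 and 6 and was higher there by 1.94 ± 0.48 log2 units (adjusted p = 0.0245, edgeR). Its levels ran from 3.34 to 12.1 CPM in CastB6, 3.94 to 23.0 CPM in MolfB6 and 5.74 to 57.4 CPM in PwkB6, so SpretB6 overlapped PwkB6 but neither CastB6 nor MolfB6. A member could thus differ between crosses and still vary widely within one of them.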

How the data were processed

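Bulk RNA-seq tables of 16 libraries were used. Per the file headers, the deposited columns hold transcript length, effective length, TPM (scaled by the authors to a fixed sum per library) and estimated counts, which need not be whole. Salmon, DESeq2 and mm10 are named in the submitters' processing notes. Their versions, the transcript set and any bias setting are not stated there. Alleles were not analysed here. Of the listed identifiers, 0 could be matched to a gene symbol, so the planned gene lists and cell type markers could not be read, and no sequence is shown.

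CPM was computed from the estimated counts and each library's total, with a pseudocount of 0.5. For the tests, estimated counts were rounded to whole numbers, filtered by filterByExpr (minimum count 10, minimum total 15), scaled by TMM and fitted with edgeR 4.0.16 in R 4.3.3 over all 16 libraries. P-values were adjusted over 56721 transcripts. Alternatives used DESeq2 1.42.0, limma 3.58.1, other filters, units, pseudocounts and level windows, and each library left out in turn. The testing procedure was checked on simulated counts. No test includes the error made in dividing shared reads.

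Named transcripts are, for each cross, the 2 with the highest SD whose farthest library is above and the 2 whose farthest is below, the 4 with the highest mean SD, those at the threshold, and the 3 most like the first. Members of groups, mirrored pairs and called members were named after their values were seen. The members and lists were chosen with earlier results of these data known.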

Additional observations from a re-analysis of the deposited data

Results flagged for a closer look

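In 11 of 96 groups of 4 examined (19 named transcripts and 5 values per library, each within the 4 crosses) 1 library lay far from the other 3 of its cross. Chance alone flags about 1 in 20, or 4.8 here, a rate that does not carry over to transcripts chosen for their spread. ENSMUST00000165111.8 was at 18.9 CPM in CastB6 3 where the others had 146 to 159, and its mirrored neighbour was at 369 CPM there. ENSMUST00000030143.13 was at 2.39 CPM in MolfB6 6 where the others had 34.2 to 39.8. ENSMUST00000099683.2 and ENSMUST00000099046.4, both of group 7, were at 295 and 104 CPM in MolfB6 1 (others at most 37.0 and 11.4) and at 281 and 82.9 CPM in PwkB6 6 (others at most 17.2 and 6.03). PwkB6 5 stood apart for ENSMUST00000115251.8 (72.7 CPM, others 23.0 to 25.3), ENSMUST00000134542.2 (78.7 CPM, others 3.56 to 15.99) and ENSMUST00000164079.9 (9.95 CPM, the others at 0). SpretB6 6 drove 15 members and had 20 members at 0 reads, where the other SpretB6 libraries drove 2 to 3 and had 2 to 5 at 0, and its total is the lowest of SpretB6.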

How the results depend on the processing

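Of 287 alternative values, 249 stayed within the limits set for no change and 38 moved. The order of the 2 crosses that drove most members turned without PwkB6 6 (PwkB6 62, CastB6 74) and without CastB6 6 (76 and 85), from 87 and 62. Joint calls among the members were 10 (5%) with DESeq2, against 19.5% of all tested. When 1 library was left out they ran from 2 to 10 (1% to 5%), against 6.94% to 11.3% of all tested. With the replicate block joint calls were 2 (1%, against 6.31%), but the numbers are not known to pair libraries. Same-numbered libraries of different crosses correlated at -0.208 to 0.333 over deviations, and 5 of 21 pairs were over 0.1. Of 16 libraries, 5 were closest to one of their own number. With 1 library left out, calls for CastB6 ran from 3 to 9 (1.5% to 4.5%), against 2.25% to 5.43% of all tested. Those for MolfB6 ran from 0 to 4 (0% to 2%), against 1.44% to 3.17%. For PwkB6 they ran from 0 to 4 (0% to 2%), against 1.66% to 5.16%. For SpretB6 they ran from 2 to 7 (1% to 3.5%), against 4.56% to 7.99%. DESeq2 called 4, 6 and 6 members (2%, 3% and 3%) for MolfB6, PwkB6 and SpretB6, against 6.01%, 8.66% and 11.6% of all tested. With limma voom these were 3, 1 and 5 (1.5%, 0.5% and 2.5%), against 3.22%, 4.06% and 8.01%. A filter of 5 CPM in 4 libraries gave 2, 4 and 7 (1%, 2% and 3.5%), against 7.57%, 10.6% and 15.1%. A pseudocount of 2 CPM kept 132 of the 200 members, the deposited TPM 82 (with 14 driven by SpretB6) and a level window of 1 to 9 only 34; a wider window or another unit offers other transcripts to the choice. Leaving out 1 library kept 165 to 190. The median SD in a cross not used for the choice ran from 0.615 to 0.894 in CastB6, 0.447 to 0.578 in MolfB6, 0.659 to 1.06 in PwkB6 and 0.398 to 0.485 in SpretB6 when 1 of its libraries was left out. A limit of -0.9 for mirrored neighbours, added after seeing the data, left 22. Driving libraries below their cross numbered 151 to 169 with 1 library left out, from 163. They numbered 131 with a pseudocount of 2 CPM, 158 with 0.1 CPM and 148 with a level window of 1 to 9. The causes of the other shifts were not tested.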
